A study of Bos taurus with 8 samples.

Results

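The subject here is a set of 43 genes that mark white blood cells, measured in RNA of bovine granulosa cells, which form the inner lining of the ovarian follicle and nourish the oocyte. The set was taken as a list of gene symbols, drawn up with earlier results of these data known, and it falls into 19 T cell and cytotoxic genes, 4 B cell genes, 6 myeloid genes and 14 genes shared by most leukocytes. Of the 43 genes 39 had a probe, against 37233 features on the array. No probe carried the symbol of CD79B (a chain of the B cell antigen receptor), ITGAX (an integrin of dendritic cells and macrophages), CSF3R (the receptor for granulocyte colony stimulating factor) or CD52 (a small surface glycoprotein of lymphocytes). Without CSF3R the set holds no gene restricted to neutrophils, so that lineage is represented only by genes that macrophages share.

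All cows were Holstein, and all were sampled at day 60 after calving, 42 h after a single injection of PG. The dominant follicles were larger than 9 mm and were emptied by aspiration. Group BHBH comprised cows with severe negative energy balance and a high blood level of beta-hydroxybutyrate, a ketone body made when fat is burned, and group BHBL comprised cows with mild negative energy balance and a low level. Each group held 12 cows in 4 pools of 3, and the pools are the samples, so that differences between cows of a pool are not seen. One pool of each group shared an array, on 2 arrays with exchanged dyes, which gave 8 arrays and 4 pool pairs. The question asked of this set was whether leukocyte transcripts in the aspirates differed between severe and mild energy deficit. No group without an energy deficit was analysed here.

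White blood cells reach the follicle through the vessels of the theca, the layer outside the basement membrane, and the granulosa layer itself has no vessels before ovulation. Aspiration of a follicle collects whatever cells are loose in it, and macrophages and lymphocytes are commonly found among granulosa cells collected in this way. T cells are recognised by the CD3 chains of their receptor, B cells by CD79 and the membrane protein CD20 (gene MS4A1), and myeloid cells by integrins such as CD11b (gene ITGAM) and by the signalling adaptors TYROBP and FCER1G. PTPRC, the phosphatase CD45, is carried by nearly all nucleated blood cells.

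All 16 granulosa genes of the list used here, among them FSHR and CYP19A1, were above background, but so were all 10 theca and stroma genes, so this limit does not tell the cell types apart. Background was set at the mean plus 2 SD of the negative control spots, and a probe counted as above it when either dye channel exceeded it on at least 4 of 8 arrays. By the same measure 38 of the 39 leukocyte genes were above background, against 87.1% of all features, and 31 of them were so on all 8 arrays in both groups. The exceptions were CD28, CD79A, CD5, ITGAM, IL7R, CCR7, ITGAL and CD69. CD28 was the dimmest of them, with 0 of 8 BHBH channels and 1 of 8 BHBL channels over the limit. Saturation was not seen for any member. Median intensities of the arrays lay between 249 and 427 in the Cy3 channel and between 154 and 252 in the Cy5 channel. Precision is limited by the small number of arrays.

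Leukocyte genes differed between the pools but not in a common direction between the energy balance groups. All ratios below are log2 of BHBH over BHBL, as deposited, averaged over the 2 arrays of a pool pair, and 1 log2 unit is 2-fold. The median of the 39 members was 0.572 in pair 1, 0.024 in pair 2, 0.443 in pair 3 and -1.28 in pair 4. Members higher in BHBH numbered 34, 20, 32 and 6 of 39 in these pairs. The medians of all 37233 features in the same pairs were 0.00186, 0.0129, 0.00924 and 0.0288. In pair 4, 23 of 39 members were at least 2-fold lower in BHBH, where 3.14% of all features and 3.58% of those above background were. In pair 1, 11 of 39 were at least 2-fold higher, where 2.33% of all features and 2.66% of those above background were. Pair 4 had the lowest ratio of the 4 pairs for 32 of 39 members, against 21.7% of all features, and pair 1 the highest for 25 of 39, against 30.1%. In bulk RNA of this kind a smaller number of leukocytes and less RNA per leukocyte cannot be told apart.

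**Figure D1:**
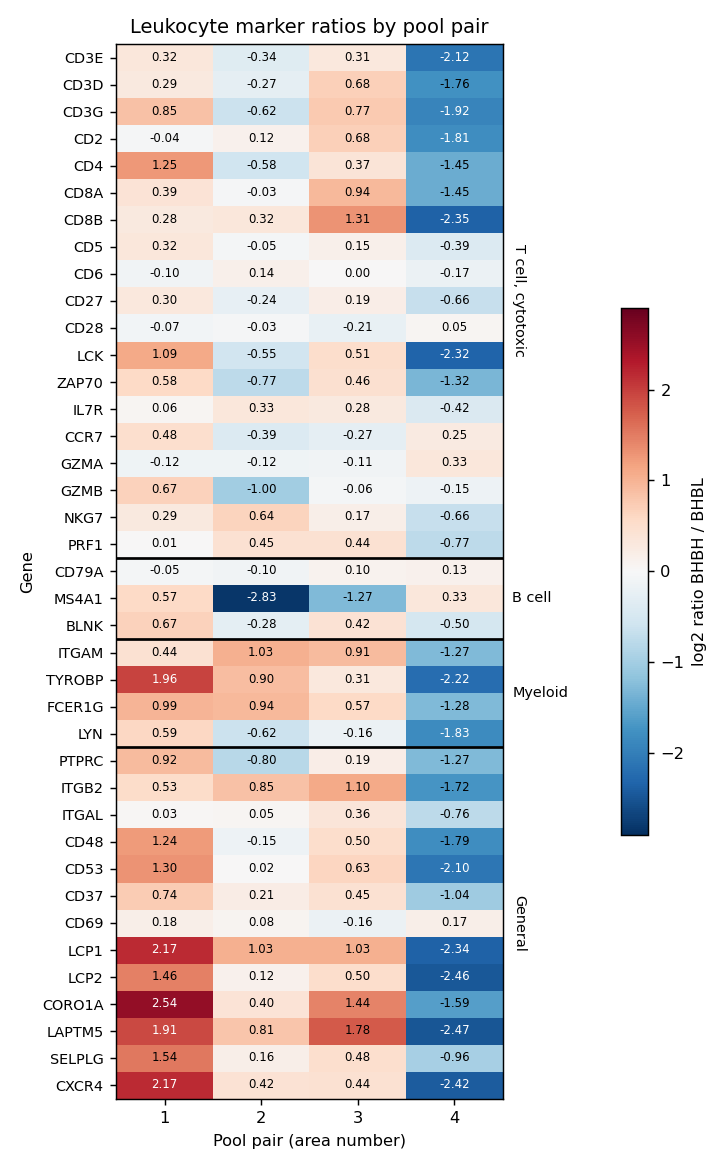
Deposited log2 ratio of BHBH over BHBL for each of the 39 measured genes (rows, grouped by role) in each of the 4 pool pairs (columns), averaged over 2 dye-swapped arrays, with red for higher and blue for lower in BHBH. Most rows are red in pairs 1 and 3 and blue in pair 4, from 2.54 for CORO1A in pair 1 to -2.47 for LAPTM5 in pair 4, while MS4A1 is lowest in pair 2 at -2.83.

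Averaged over the 4 pairs, the member median was -0.0293, with 18 members higher and 21 lower, beside a median of 0.0124 over all features. With limma on the 4 pair ratios 0 of 39 members were called at adjusted p under 0.05, as were 0 of all features, or 0%. The adjusted p of the members lay between 0.884 and 0.997. At an unadjusted p under 0.05 there were 0 members, against 5.41% of all features. When a difference of 1.5-fold or more was required too, there were again 0 members, against 0.983% of all features in either direction and 0.897% lower in BHBH. Fits on the 8 arrays also called 0 members, both with the pool pair as a replicate block, where 0.36% of all features were called, and without it, where 0.706% were. Not 1 member had the same sign in all 4 pairs, where 16.1% of all features did, 6.9% being lower and 9.22% higher throughout. With mixed signs over the pairs, the mean of a member is smaller than its range by arithmetic, so that is no separate result. Among 39 members, counts of 0 are not far from the all-feature shares of 5.41% and 0.983%. With 4 pool pairs they do not show that the groups were alike. Leaving out pair 4 turned the direction of the set, since 32 of 39 members were then higher in BHBH, and leaving out pair 1 left 11 higher and 28 lower.

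Among the 4 groups of members the general leukocyte genes had the widest ranges over the pairs, with a median range of 3.02. Their median ratio in pairs 1 to 4 was 1.30, 0.157, 0.497 and -1.72 over 13 measured genes, all 13 of which were higher in BHBH in pair 1 and 12 lower in pair 4. PTPRC (probe EMBV3_42792) was at 0.92, -0.80, 0.19 and -1.27 in pairs 1 to 4. It was thus higher in BHBH in 2 pairs and lower in 2, with a mean of -0.24 ± 0.41 (SE, n = 4 pool pairs) and adjusted p = 0.946 from limma. A second PTPRC probe lay below background. LAPTM5 (EMBV3_26964), a lysosomal membrane protein of blood cells, was at 1.91, 0.81, 1.78 and -2.47. Its mean of 0.50 ± 0.85 had an adjusted p of 0.945, and its other 2 probes averaged 0.48 with the same sign. Pairs 1 to 3 were above 0 and pair 4 alone was below it, a layout shared by LCP1, CORO1A, CXCR4, ITGB2 and SELPLG.

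LCP1 (EMBV3_17262), the actin bundling protein L-plastin, was at 2.17, 1.03, 1.03 and -2.34, with a mean of 0.47 ± 0.81 (adjusted p = 0.946). CORO1A (EMBV3_32457), an actin binding coronin of leukocytes, was at 2.54, 0.40, 1.44 and -1.59, and its mean of 0.70 ± 0.73 was the highest of all members (adjusted p = 0.906). CXCR4 (EMBV3_34890), the receptor for the chemokine CXCL12, which cells outside the blood lineage also carry, was at 2.17, 0.42, 0.44 and -2.42. This was the widest range of the set, 4.59 log2 units, around a mean of 0.15 ± 0.79 (adjusted p = 0.986).

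ITGB2 (EMBV3_43370), the beta chain shared by the leukocyte integrins, was at 0.53, 0.85, 1.10 and -1.72, with a mean of 0.19 ± 0.54 (adjusted p = 0.971). SELPLG (EMBV3_09186), the selectin ligand used for rolling on vessel walls, was at 1.54, 0.16, 0.48 and -0.96, with a mean of 0.30 ± 0.43 (adjusted p = 0.933). By contrast the early activation receptor CD69 (EMBV3_34379) was close to background and stayed between -0.16 and 0.18. The tetraspanins CD37 and CD53, the adaptor gene LCP2, the adhesion receptor gene CD48 and the integrin chain ITGAL were likewise lowest in pair 4, between -2.46 and -0.76. For CD48 and CD53 a further probe had a mean of the opposite sign, at 0.01 and 0.12, but both of these probes were lowest in pair 4 too, at -1.26 and -1.12. ITGAL differed by sign between its swapped arrays in pairs 1 to 3 and is the least repeatable of these genes.

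T cell genes were lower together in pair 4, with smaller differences in the other pairs. The 19 T cell and cytotoxic genes had medians of 0.301, -0.116, 0.311 and -0.766, and 16 of them were lower in BHBH in pair 4. CD3E (EMBV3_06348), a signalling chain of the T cell receptor complex, was at 0.32, -0.34, 0.31 and -2.12. The mean of -0.46 ± 0.48 (adjusted p = 0.906) rested on pair 4, since the other pairs lay within 0.34 of 0. The companion chain CD3G (EMBV3_03103) was at 0.85, -0.62, 0.77 and -1.92, with the same signs, and CD3D lay between -1.76 and 0.68.

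The kinase LCK (EMBV3_23258), which starts signalling from the CD3 chains, was at 1.09, -0.55, 0.51 and -2.32, with a mean of -0.32 ± 0.62 (adjusted p = 0.955). ZAP70 (EMBV3_29144), the kinase recruited next, was at 0.58, -0.77, 0.46 and -1.32, with a mean of -0.26 ± 0.39 (adjusted p = 0.937). Its other 2 probes averaged 0.02. Both kinases thus had the signs of CD3E in every pair. CD2 (EMBV3_11887), an adhesion receptor of T and NK cells, was at -0.04, 0.12, 0.68 and -1.81, with a mean of -0.26 ± 0.45 (adjusted p = 0.946).

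Helper and killer T cell coreceptors were both lowest in pair 4. CD4 (EMBV3_33180), the coreceptor of helper T cells that macrophages of some species also carry, was at 1.25, -0.58, 0.37 and -1.45, with a mean of -0.10 ± 0.49 (adjusted p = 0.984). CD8A (EMBV3_24437) was at 0.39, -0.03, 0.94 and -1.45, with a mean of -0.04 ± 0.42 (adjusted p = 0.994). CD8B (EMBV3_33454), its partner chain, was at 0.28, 0.32, 1.31 and -2.35, the widest range of the T cell genes at 3.66. Its mean was -0.11 ± 0.65 (adjusted p = 0.987). In pair 3 the CD8 chains were higher in BHBH by 0.94 and 1.31, beside 0.37 for CD4, and in pair 1 the order was the other way, with 0.39 and 0.28 beside 1.25. Those orders were not tested.

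The remaining surface receptors of T cells had narrower ranges than the CD3 chains. CD5, CD6, CD27, IL7R (the interleukin 7 receptor) and CCR7 (the homing receptor for lymph nodes) had ranges over the 4 pairs of 0.70, 0.31, 0.96, 0.74 and 0.87. For CD6 this was below the median range of 0.366 over all features, and for the other 4 it was above it. CD5, IL7R and CCR7 were near background, which limits their ratios. They cleared the limit in 3, 7 and 6 of 8 BHBH channels and in 4, 5 and 7 of 8 BHBL channels. The swapped arrays of CCR7 had opposite signs in pair 3, at 0.44 and -0.99. The costimulatory receptor CD28 (EMBV3_18463) was not above background on any BHBH array. With 1 of 8 BHBL channels over the limit, no fold is given for it. Further probes of CD3D, CD8A, CD8B, CD27 and ZAP70 lay closer to 0 in pair 4 than the probes used. They were at -0.28 for CD3D, -0.13 for CD8A and -0.37 for CD8B, and at -0.28 and 0.01 for ZAP70. The further CD27 probe was at 0.1 in pair 4, opposite in sign to the probe used, at -0.66. All of these probes were above background but dimmer than the probes used. For CD3D, CD8A and CD8B their mean log2 intensity was 7.41, 7.49 and 7.45, against 10.02, 9.06 and 10.2 for the probes used. CD79A, a gene near background, was at 7.39. Dimness and a real disagreement between probes cannot be told apart here.

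Among the cytotoxic granule genes some were lowest in pair 4, as the CD3 chains were, and others were not. NKG7, a granule membrane protein, and PRF1, the pore protein perforin, were highest in pair 2, at 0.64 and 0.45, and lowest in pair 4, at -0.66 and -0.77. The granule protease GZMA stayed between -0.12 and -0.11 in pairs 1 to 3 and was at 0.33 in pair 4, although its level was well above background in every pool. The protease GZMB, whose values by pair were chosen for display after they were seen, was at 0.67, -1.0, -0.06 and -0.15. Its level differed far more between pairs than within them. The normalised log2 intensity of GZMB, averaged over both arrays of a pool, was 13.10 and 12.10 in the BHBH pools of pairs 1 and 2 and 12.39 and 13.21 in their BHBL pools. In pairs 3 and 4 it was 8.85 and 8.73 in BHBH and 9.00 and 9.01 in BHBL. Levels from different arrays depend on the normalisation between arrays, which the ratios do not.

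All 3 measured B cell genes were lower in BHBH in pair 2, and their signs differed in the other pairs. MS4A1 (EMBV3_11225), the membrane protein CD20 of mature B cells, was at 0.57, -2.83, -1.27 and 0.33 in pairs 1 to 4. It was therefore lowest in pair 2 and above 0 in pair 4, where the T cell and general genes were lowest. The mean of -0.80 ± 0.66 was the lowest of all members (adjusted p = 0.884). BLNK (EMBV3_14660), an adaptor below the B cell receptor, was at 0.67, -0.28, 0.42 and -0.50, with a mean of 0.08 ± 0.23 (adjusted p = 0.973), and its further probe at 0.01. CD79A (EMBV3_40482), the receptor's signalling chain, cleared the background limit in 2 of 8 BHBH channels and 3 of 8 BHBL channels and stayed between -0.10 and 0.13. With 3 genes measured, a median says little for this lineage.

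A wider list of 11 measured B cell genes had 8 lower in BHBH in pair 2 and held 0 called genes in either direction and 1 that met the looser limits of p and fold. CD22, an inhibitory receptor of B cells, was at 1.42, -2.28, -0.96 and 0.24, which are the signs of MS4A1 in every pair. CR2, the complement receptor of B cells, chosen after its value was seen, was at 0.95, -1.38, -0.01 and -0.29. JCHAIN (IGJ on the array), the joining chain that plasma cells add to secreted antibodies, was that 1 gene and was lower in BHBH in all 4 pairs, at -0.74, -2.49, -1.81 and -0.76, and its mean was -1.45 ± 0.35 (adjusted p = 0.864). CD40, a receptor that macrophages carry too, was at 1.14, 0.00, 1.02 and -1.08.

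Myeloid genes were higher in BHBH in pairs 1 to 3 and lower in pair 4, apart from LYN. TYROBP (EMBV3_43719), the adaptor DAP12 of activating receptors on macrophages and NK cells, was at 1.96, 0.90, 0.31 and -2.22, with a mean of 0.24 ± 0.74 (adjusted p = 0.974). FCER1G (EMBV3_43595), the gamma chain of Fc receptors, was at 0.99, 0.94, 0.57 and -1.28, with a mean of 0.31 ± 0.45 (adjusted p = 0.936). ITGAM (EMBV3_19367), the CD11b integrin chain of macrophages and neutrophils, was at 0.44, 1.03, 0.91 and -1.27, with a mean of 0.28 ± 0.44 (adjusted p = 0.941). Its signal cleared the background limit in 5 of 8 BHBH channels and 2 of 8 BHBL channels. LYN (EMBV3_42444), a kinase of B cells and myeloid cells, was at 0.59, -0.62, -0.16 and -1.83, with a mean of -0.50 ± 0.42 (adjusted p = 0.885). LYN thus had the signs of PTPRC in pairs 1, 2 and 4 and not those of TYROBP in pairs 2 and 3.

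Without pair 4, 6 members met the looser limits of unadjusted p and fold, all of them higher in BHBH, as were 1.13% of all features. They were FCER1G, LAPTM5, LCP1, ITGB2, ITGAM and CORO1A, with mean ratios of 0.79 to 1.5. Each of them had been above 0 in pairs 1 to 3 and below 0 in pair 4, so these means follow from the pair left out and are given as a description. Leaving out pair 1, 2 or 3 gave 0 such members. The adjusted p of the 6 genes in limma over 3 pairs lay between 0.478 and 0.801, so 0 members were called. No CD3, CD4 or CD8 gene was among the 6.

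The level in each pool was used to describe which side of a pair carried its ratio, within the limit that such levels depend on the normalisation between arrays. In these values each channel was normalised to a log2 intensity and both arrays of a pool were averaged. Of 39 members, 25 had their lowest level in BHBH pool 4, where 14.6% of all features had theirs, and 18 had their highest level in BHBL pool 4, where 12% of all features had theirs. A further 11 members were highest in BHBH pool 1, against 17.6% of all features. For many members pair 4 thus combined a low BHBH pool with a high BHBL pool.

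LCK was at 12.16, 11.41, 11.62 and 10.17 in BHBH pools 1 to 4 and at 11.19, 12.11, 11.14 and 12.69 in BHBL pools 1 to 4. LAPTM5 was at 13.82, 13.49, 13.21 and 10.98 in BHBH and at 11.66, 12.84, 11.32 and 13.77 in BHBL. For both genes the lowest of 8 pools was BHBH pool 4, and the groups overlapped. PTPRC was at 12.19, 11.82, 10.19 and 9.36 in BHBH and at 11.23, 12.81, 10.00 and 10.88 in BHBL, so that BHBL pool 4 was not its highest pool. MS4A1 was at 11.35, 8.11, 8.84 and 10.49 in BHBH, where pools 2 and 3 were low, and between 10.21 and 11.33 in all BHBL pools. Pools of the 2 groups overlapped in level for all 39 members. Over all features 3.05% did not overlap, a share to which 0 of 39 members is close.

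**Figure D2:**
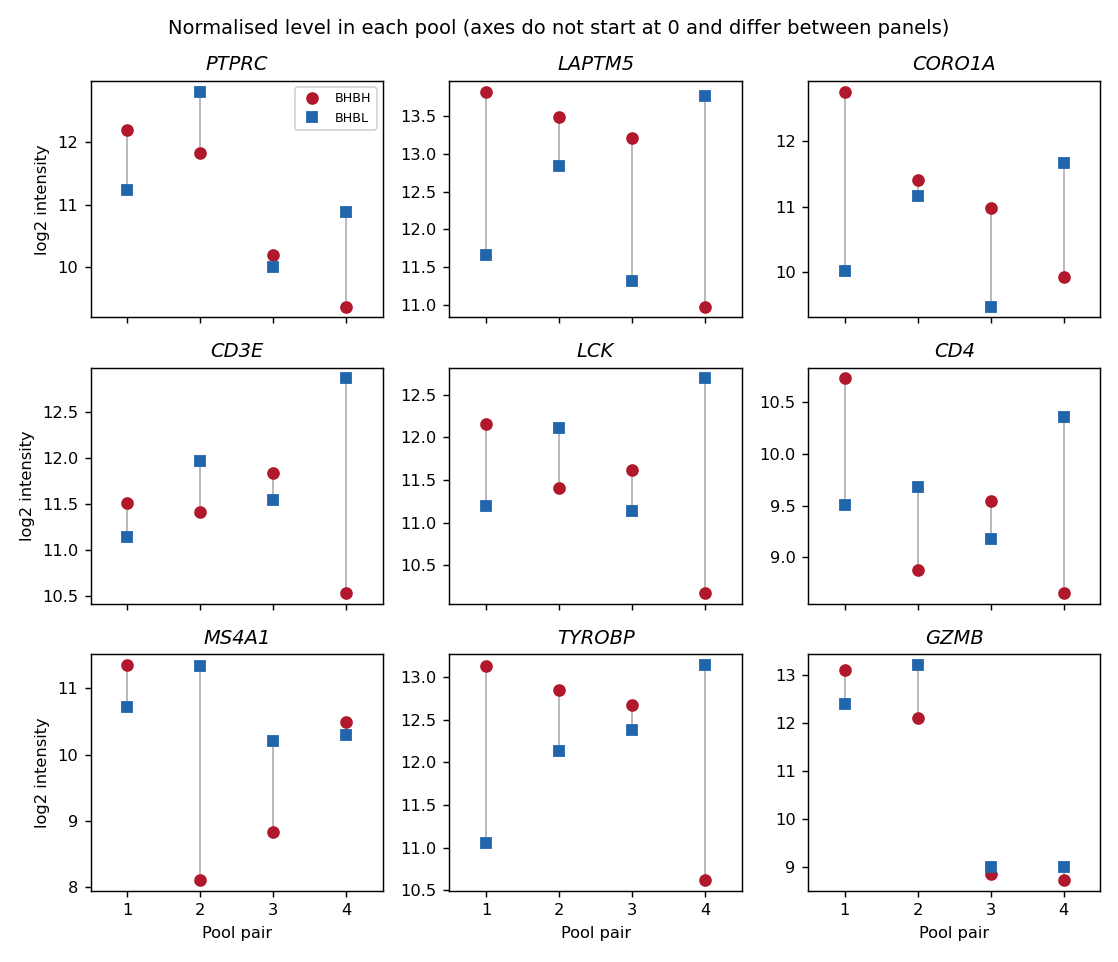
Normalised log2 intensity of 9 members in each of 8 pools, BHBH as circles and BHBL as squares, with a line joining the pools of a pair and each point the mean of 2 dye-swapped arrays. LAPTM5, LCK and TYROBP have their lowest point in BHBH pool 4, MS4A1 has its lowest in BHBH pool 2 at 8.11, and GZMB lies above 12 in pairs 1 and 2 and near 9 in pairs 3 and 4.

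Most ratios were repeatable within a pair. Both swapped arrays had the same sign for 33, 32, 33 and 37 of 39 members in pairs 1 to 4, and the largest difference between them was 1.43 log2 units. Between the 2 swapped arrays of a pair the members' ratios differed by a median of 0.158 log2 units, whereas the median range of a member over the 4 pairs was 2.39, against 0.366 for all features and 0.439 for those above background. Across the 39 genes, which are not independent replicates, ratios of the swapped arrays of a pair correlated at r = 0.832 to 0.977. Arrays of different pairs on different slides correlated at -0.713 to 0.647. Dye orientation and slide coincide in this design, and for 0 of 39 members, against 16.4% of all features, did their joint effect pass adjusted p of 0.05. That fit held no term for the pool pair, so the wide spread of the members between pairs counted as error. The count of 0 therefore does not show that the members were free of such an effect.

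Each feature was also tested for differences among the 4 pairs with limma's F test on 8 arrays with a slide term, a test added after the data were seen. Of 39 members 35 passed adjusted p of 0.05, where 47.1% of all features did, and 52.9% of features above background. All 13 general and all 4 myeloid genes passed, as did 16 of 19 T cell and cytotoxic genes and 2 of 3 B cell genes. CD79A, CD28, CD6 and CCR7 did not. This test sets pool pairs against the technical spread of swapped arrays and does not bear on the energy balance groups. Without pair 4 the count was 33 of 39, beside 42.3% of all features.

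**Figure D3:**
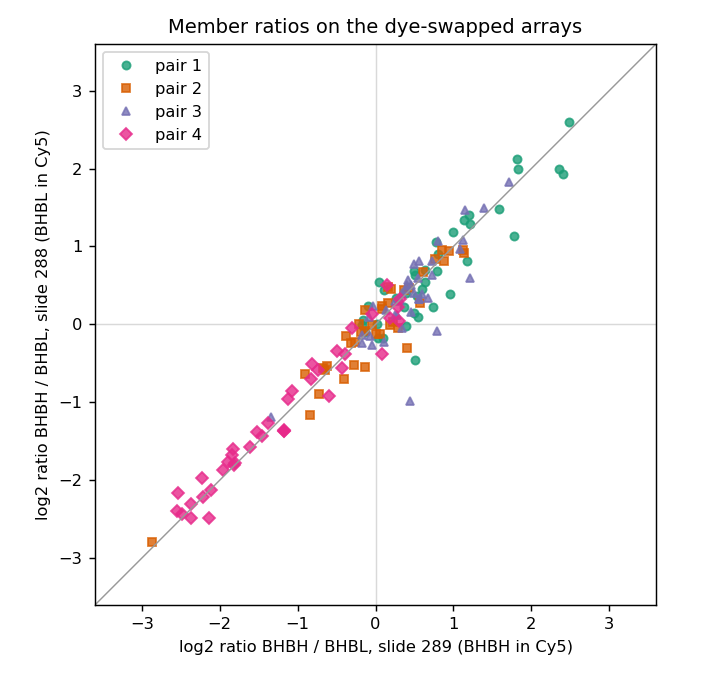
Log2 ratio of BHBH over BHBL of the 39 members on slide 289 (x axis, BHBH in Cy5) and slide 288 (y axis, BHBL in Cy5), with 1 point per gene and pool pair and the line of equality. Points of each pair lie near the line, with pair 1 reaching the upper right and pair 4 the lower left.

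Markers of other cell types differed along with these genes, and their part in the result was not tested. Genes of macrophages and monocytes had medians of 1.37, 0.924, 1.06 and -2.48 in pairs 1 to 4, and all 20 measured were lower in BHBH in pair 4. Their median level, centred on each gene's mean, ran from -1.96 to 0.796 over the BHBH pools and from -1.11 to 0.963 over the BHBL pools. CD14, the endotoxin coreceptor, was at 2.84, 1.51, 1.24 and -3.01, and CD163, the haemoglobin scavenger receptor, at 0.91, 2.52, 1.58 and -4.39. Both had the signs of TYROBP and FCER1G in every pair. Not all genes of the list did, since in pair 2 14 of the 20 were higher in BHBH and 6 lower, among them lysozyme (LYZ) at -2.73. MHC class II genes, which present antigen on macrophages, dendritic cells and B cells, had medians of 0.814, 0.00853, 0.0266 and -2.11 over 9 genes. BOLA-DRB3, a class II beta chain, was at 1.49, 0.01, 0.49 and -2.85, close to zero in pair 2.

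Further genes of T and NK cells had narrower medians of 0.084, -0.0623, 0.0265 and -0.339 over 32 genes, of which 27 were above background and 27 were lower in BHBH in pair 4. CTSW, a protease of cytotoxic cells, was at 0.79, 0.54, 1.96 and -2.96. GNLY, a granule peptide, was at 0.75, -1.57, -1.01 and -3.08. TCF7, a transcription factor of naive T cells, was at 0.93, -1.70, -1.17 and 0.08, with the signs of MS4A1. Further general leukocyte genes had medians of 0.74, 0.213, 0.425 and -0.893 over 27 genes, led by HCLS1, an actin regulator of blood cells, at 1.92, 1.16, 1.59 and -3.41. In none of these lists was a gene called in either direction.

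Neutrophil genes differed among themselves in their order over the pairs. Over 15 measured genes the medians were 0.0201, -0.273, -0.227 and -0.185, and 0 were called while 3 met the looser limits of p and fold, all lower in BHBH. S100A8 and S100A9, the subunits of calprotectin, were lowest in pairs 2 and 3. S100A8 was at -0.77, -3.34, -4.49 and -0.82 and S100A9 at -0.33, -3.34, -4.19 and -1.20. LTF, lactoferrin, was at -0.60, -3.82, -1.19 and -2.72. Epithelial cells also make these 3 proteins. Other neutrophil genes, chosen after their values were seen, ran differently. The chemokine receptor CXCR2 (IL8RB on the array) was at 2.84, -0.96, -2.24 and -0.25, and the matrix protease MMP9 at 0.22, 3.57, 1.98 and -0.20. TREM1, an activating receptor of neutrophils and monocytes, was at 0.64, 0.85, 0.79 and -0.74, with the signs of TYROBP, FCER1G and ITGAM.

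Most granulosa genes ran opposite to the leukocyte genes in pairs 1 and 4. In pair 1, 13 were lower in BHBH and 3 higher, among them CDH2 at 1.88. In pair 4, 15 were higher and 1 lower, NR5A2 at -0.53. INHA, INHBA and SERPINE2 were very bright, with pool levels of 15.21 to 16.03, and saturation is given here for members only. The granulosa medians over 16 genes were -0.347, 0.534, 0.0365 and 0.685, with FSHR, the receptor for follicle stimulating hormone, at -1.52, 1.23, -0.47 and 2.04. CYP19A1, aromatase, was at -1.45, 0.66, -1.41 and 1.22. Theca and stroma genes were at 1.07, -0.569, -0.744 and -1.40, which in pairs 1 and 4 are the signs of the median of all members and in pairs 2 and 3 are not. In pair 2 the T cell and B cell medians were below 0 as well. In that list the collagen gene COL3A1 was at 3.74, -1.44, -3.39 and -4.51, while CYP17A1, the androgen enzyme of theca cells, stayed between -0.25 and 0.01. LUM, lumican, was lower in BHBH in all 4 pairs, at -1.19, -1.03, -2.57 and -0.06. It was the 1 gene of the theca and stroma list that met the looser limits of p and fold (adjusted p = 0.864 from limma). HBB, the beta chain of haemoglobin from red cells, was at 4.08, -4.87, -3.65 and 0.57, which are the signs of MS4A1 and CD22. The red cell list of 7 genes had medians of 0.125, -0.31, -0.0295 and 0.0199, and the platelet list of 7 genes had 0.621, 0.312, -0.123 and -0.45. Endothelial medians lay between -0.0177 and 0.0868, although KDR, a receptor for vascular growth factor, was at 1.10, -0.64, 0.03 and -0.33 and ENG, endoglin, at 0.11, 0.81, 0.04 and -0.40. Of the 10 endothelial genes 8 were above background, and PECAM1 and TIE1 were below the limit. KDR cleared it in 4 of 8 BHBH channels and 6 of 8 BHBL channels. CDH5, VWF, TEK and ESAM had log2 levels no higher than 7.79 in any pool. With probes this dim, flat medians do not show that endothelial content was alike. No gene of these lists was called.

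**Figure D4:**
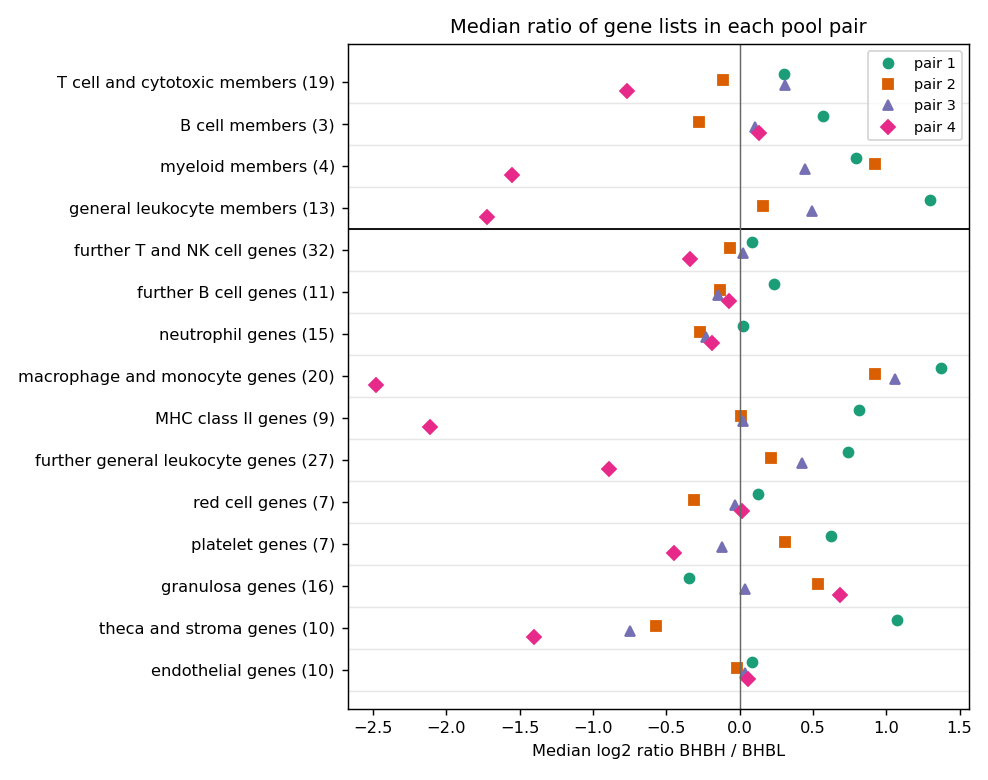
Median log2 ratio of BHBH over BHBL for 4 member groups (above the line) and 11 further gene lists (below it) in each pool pair, with the number of measured genes in brackets. Pair 4 lies far to the left for macrophage genes at -2.48, MHC class II genes at -2.11 and general leukocyte members at -1.72, and to the right for granulosa genes at 0.685.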

How the data were processed

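Intensity files, deposited by the authors, give median foreground and local background per spot at 532 nm (Cy3) and 635 nm (Cy5), per the file headers. The table of the whole series holds log2 ratios as deposited by the authors. Limma is listed without a version in the submitters' processing notes, and the sources used here do not give the background correction and normalisation behind the ratios. Per the labels, RNA was linearly amplified and 825 ng per pool were labelled. The deposited ratios correlated at 0.941 to 0.96 with BHBH over BHBL ratios computed from the scanner files, so their direction was kept. Array medians were -0.0142 to 0.0396, and how they were centred is unknown.

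Arrays with the same area number were taken as 1 pool pair, 1 title reading area 1.2 taken as area 1. Deviations of the 2 arrays of a pair from their slide's mean correlated at 0.86 to 0.912 over features. Rows without an ID (8 per array) were left out. Each symbol was represented by its probe with the highest mean log2 intensity. With 22004 probes without a symbol this gave 37233 features, unfiltered, named by the array annotation. List genes were matched to symbols of older usage through the RefSeq gene table, and no member matched in this way.

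R 4.3.3, limma 3.58.1, data.table (version 1.17.8) and jsonlite 2.0.0 were used. The 4 pair ratios were tested against 0 (lmFit, eBayes), with Benjamini-Hochberg adjustment over all features. Errors are limma's standard errors. P-values measure the spread between pools of 3 cows. The F test between pairs and a fit on named genes alone were added after the data were seen. Other fits changed the source, background correction and centring of ratios, the dim probes, the probe rule, the unit of the fit, the slide, the variance model, the array weights and the pairs kept. Pool levels came from normexp (offset 50), loess and Aquantile normalisation. Members and lists were chosen with earlier results of these data known. Values by pair are given for 9 core markers and, per role, for the 4 members of smallest unadjusted p and the 3 of widest range, with others by range. The lists add up to 3 genes each by mean absolute ratio, and 9 fixed genes. In simulated data with 37233 features and the real spread, 64% of 100 genes set 2-fold apart and 73% of 100 set 4-fold apart between BHBH and BHBL were recovered, and the F test recovered 93% of 200. Recovery was not computed for the members alone. Their median range over the pairs was 2.39, against 0.366 for all features, so these shares cannot be read as holding for them.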

Additional observations from a re-analysis of the deposited data

Results flagged for a closer look

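In 11 of 125 groups of 4 values 1 value lay far from the other 3. Chance gives about 1 in 20 for independent groups. These groups are not independent, since they share the same 4 pairs and some are medians over genes also counted singly. That rate therefore does not apply, and the flags are not separate pieces of evidence. Pair 4 stood apart in 6 sets of ratios. GZMA was at 0.329 in pair 4 against -0.122 to -0.111 in the others. The macrophage and monocyte median was at -2.48 against 0.924 to 1.37, FCGR1A at -3.81 against 1.81 to 2.24 and VSIG4 at -3.67 against 1.37 to 1.99. RAC2 was at -2.72 against 0.488 to 0.888 and HCLS1 at -3.41 against 1.16 to 1.92. In pair 2 BOLA-DQB was at 2.26 against -2.39 to -1.63, and in pair 1 PDGFRA was at 3.33 against -2.44 to -1.5. Among pool levels, centred on each gene's mean, the macrophage median was -1.96 in BHBH pool 4 against 0.398 to 0.796 in the other BHBH pools. Further general leukocyte genes were at -0.519 in the same pool against 0.231 to 0.312. Further B cell genes were at 0.383 in BHBL pool 2 against -0.0387 to 0.03 in the other BHBL pools. GZMA was the 1 member among these 11.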

How the results depend on the processing

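The count of 0 calls over all features became 134 with the area number as a replicate block and 263 with 8 separate arrays without the block, and was 0 in the other 14 fits. Members called numbered 0 in all 17 fits, and the lowest adjusted p of a member was 0.174, on slide 288 alone. Features that met the looser limits of p and fold numbered 366. Their number was 683 with the replicate block and 684 without it on 8 arrays, 690 on slide 289, 970 on slide 288, 550 with array weights and 238 with named genes alone, a setting added after the data were seen. Leaving out 1 pair gave 224 to 959, with 959 without pair 1, 224 without pair 3 and 756 without pair 4. Role medians moved by less than the spread between pairs in all 13 settings, but signs changed with the pairs kept. The median of all members ranged from -0.138 to 0.303 with 1 pair left out, the T cell median from -0.237 to 0.222, the B cell median from -0.12 to 0.061, the myeloid median from -0.128 to 0.815 and the general median from -0.116 to 0.693. With ratios from the scanner intensities the member medians by pair were 0.586, -0.0684, 0.39 and -1.55. Of 383 values of single named members under other settings, 28 had the opposite sign, none of them called. Members that differed between pairs numbered 33 to 36 in every setting tried. CD28, CD79A, CD5, IL7R and ITGAM were near background, which limits their ratios.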

Other observations

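Besides GZMB, several genes of the lists had a level that was high in both pools of pairs 1 and 2 and low in both pools of pairs 3 and 4. These genes were picked after their values were seen, and no test was made. FASLG, a ligand that kills target cells, had log2 intensities of 9.75, 9.92, 7.67 and 7.08 in BHBH pools 1 to 4 and 9.23, 10.88, 7.46 and 7.53 in BHBL pools. IL1R2, the decoy receptor for interleukin 1, was at 9.90, 10.06, 7.28 and 7.44 in BHBH and 9.30, 11.30, 7.77 and 8.01 in BHBL. GP1BA, a platelet adhesion receptor, was at 14.32, 13.50, 11.94 and 11.08 in BHBH and 13.58, 14.31, 11.05 and 11.69 in BHBL. BIN2, a membrane curvature protein of leukocytes, was at 12.21, 11.46, 10.29 and 8.88 in BHBH and 11.25, 12.19, 9.39 and 10.52 in BHBL. The layout was not limited to blood cell genes of this kind. NR5A2, a nuclear receptor of granulosa cells, was at 13.61, 13, 12.15 and 11.32 in BHBH and 13.17, 13.92, 11.44 and 12.01 in BHBL. SLC4A1, the anion exchanger of red cells, was at 8.22, 8.54, 7.65 and 7.50 in BHBH and 8.14, 8.95, 7.62 and 7.64 in BHBL. PTPRC had the same layout only in part, with BHBL pool 4 at 10.88 close to BHBL pool 1 at 11.23. A ratio within a pair does not show such differences between pairs, and whether pools, arrays or the normalisation between arrays set them cannot be told apart.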
